A study of Mus musculus with 9 samples.

Results

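The retinal mRNA levels of 9 genes of neurotrophic and photoreceptor survival factors were followed in mice with retinal vein occlusion (RVO). These were the ligands Fgf2, Fgf1, Bdnf, Gdnf and Igf1, the receptors Ntrk2, Ngfr and Gfra1, and the binding protein Igfbp3. The genes were chosen by symbol, and all 9 were found among the 48587 gene names of the count table, of which 30430 had at least 1 count. The 9 samples were pools of 6 retinas each from C57BL/6J mice aged 12 weeks, with 3 pools per group. In RVO eyes, all large veins were occluded by laser after an intraperitoneal injection of the photosensitising dye eosin Y (200 mg/kg). The study reported that part of the occluded veins reopened over the following days. Fellow eyes of the same mice received as many laser sites between the large vessels (control laser-treated eyes), so that the controls shared the dye, the laser burns and the circulation with RVO eyes. Both groups were collected 2 days after the laser (d2), whereas untreated eyes came from other mice and received no laser. No eosin Y dose is given for the untreated mice. In comparisons with them, the dye and the laser thus cannot be told apart. It is not stated which RVO pool and which control pool came from the same mice, and n counts pools, not mice.

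Neurotrophic factors are secreted proteins that keep neurons alive by binding receptors on their surface. In the retina, much of this supply comes from Müller glia, and fibroblast growth factor 2 (FGF2) is known for its rise after light damage, mechanical injury and laser burns and for its protection of photoreceptors. Brain-derived neurotrophic factor acts through the receptor tyrosine kinase TrkB, the product of Ntrk2, while the neurotrophin receptor p75NTR, the product of Ngfr, can also promote cell death. Glial cell line-derived neurotrophic factor binds the coreceptor GFRα1, the product of Gfra1, which then engages the kinase RET, and the insulin-like growth factor IGF1 is held by binding proteins such as IGFBP3.

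All 9 genes are protein-coding, and positions are given on the GRCm38 build. In the GENCODE vM21 annotation, Fgf2 is at chr3:37348346-37410108 (+), Bdnf at chr2:109674700-109727007 (+) and Ntrk2 at chr13:58806569-59133970 (+). Ngfr is at chr11:95568818-95587735 (−), Gdnf at chr15:7810846-7837575 (+), Gfra1 at chr19:58235604-58455909 (−), Igf1 at chr10:87858265-87937042 (+) and Igfbp3 at chr11:7206086-7213923 (−). The exons of Fgf2 share 640 bases (9.44% of its exonic length) with those of Nudt6 on the opposite strand. Nudt6 counts were 1.83% to 2.96% of the Fgf2 counts of the same sample. The library kit marked the strand, but the strand setting of the counting was not given in the sources used here. Gm45346 shares 896 bases (14.4%) of Bdnf exons on the opposite strand, and Gm16277 shares 416 bases (7.6%) of Gfra1 exons and had 0 counts.

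Of the genes that were higher in RVO than in untreated eyes, Ngfr, Gdnf and Igfbp3 have sequence upstream of a RefSeq start that lies outside annotated exons. It is printed here, and a shared regulation of these genes was not tested. RefSeq promoters (GRCm38.p6, 250 bases before each start) matched 8 of the 9 genes, with 15 starts. Both strands were searched for ACGTG and GCGTG, the core letters bound by hypoxia-inducible factors, and matches are in capitals. The sequences are given 5′ to 3′ on the strand of the gene.
Ngfr: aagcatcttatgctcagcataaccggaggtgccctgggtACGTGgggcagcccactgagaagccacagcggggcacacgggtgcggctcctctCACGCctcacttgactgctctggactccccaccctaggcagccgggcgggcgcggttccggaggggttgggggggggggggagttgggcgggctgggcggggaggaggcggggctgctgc
Gdnf: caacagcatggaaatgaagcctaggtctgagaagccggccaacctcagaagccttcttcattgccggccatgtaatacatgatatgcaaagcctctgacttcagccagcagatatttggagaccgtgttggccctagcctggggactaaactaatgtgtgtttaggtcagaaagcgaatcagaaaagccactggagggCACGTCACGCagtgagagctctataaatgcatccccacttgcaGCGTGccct
Igfbp3: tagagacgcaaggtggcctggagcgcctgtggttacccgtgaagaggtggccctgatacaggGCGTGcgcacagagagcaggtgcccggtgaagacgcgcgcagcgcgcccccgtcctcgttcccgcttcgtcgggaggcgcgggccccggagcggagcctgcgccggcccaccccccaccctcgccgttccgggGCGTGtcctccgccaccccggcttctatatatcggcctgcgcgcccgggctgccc
The Ngfr sequence is chr11:95587736-95587948 (−) and ends 37 bases before the start, the Gdnf sequence is chr15:7809798-7810047 (+) at the first of 2 starts, and the Igfbp3 sequence is chr11:7213924-7214173 (−). In Ngfr, the matches began 211 and 157 bases before the start, in Gdnf 52, 47 and 9 bases, and in Igfbp3 188 and 55 bases. Of 32851 RefSeq promoters of this length, 38.6% held ACGTG or GCGTG, so that a match was common. Bdnf, a gene that was lower in RVO eyes, has 7 starts. ACGTG was found before its start 1 (2 matches) and start 3 (1), and GCGTG before its start 3 (2) and start 5 (1). GCGTG was also found before the starts of Ntrk2 (3 matches), Igf1 (1) and Fgf2 (1). Neither ACGTG nor GCGTG was found before starts 2, 4, 6 and 7 of Bdnf, start 2 of Gdnf or the start of Gfra1. Neither TGANTCA, the AP-1 motif (6.75% of promoters), nor TTCNNNGAA, the STAT motif (7.02%), was found in the printed sequences.

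Total counts were 21022997 to 28993921 in RVO pools, 18897218 to 23419497 in control pools and 12377572 to 15245869 in untreated pools. CPM stands for counts per 1000000 of the TMM-scaled library. Each pair of groups was compared with edgeR's quasi-likelihood test, and a gene was called higher or lower where its p, adjusted after Benjamini and Hochberg over all genes tested, was under 0.01. RVO replicate 2 stood apart. Its root-mean-square log2 distance was 0.499 on average to the control pools and 0.525 to the other RVO pools, whereas RVO replicates 1 and 3 were nearer to their own group (0.453 against 0.813 and 0.4 against 0.709). Lens markers summed to 6470 CPM in RVO replicate 2 and 3210 CPM in control replicate 1, against 3.43 to 582 CPM in the other pools. For all 9 genes, RVO replicate 2 lay between the mean of the other RVO pools and the control mean, so results for RVO eyes are given with and without it. Leaving out such a pool moves each difference between RVO and control eyes away from 0 by construction. Values without it thus describe how far the results rest on this pool and are no separate support for a difference.

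**Figure D1:**
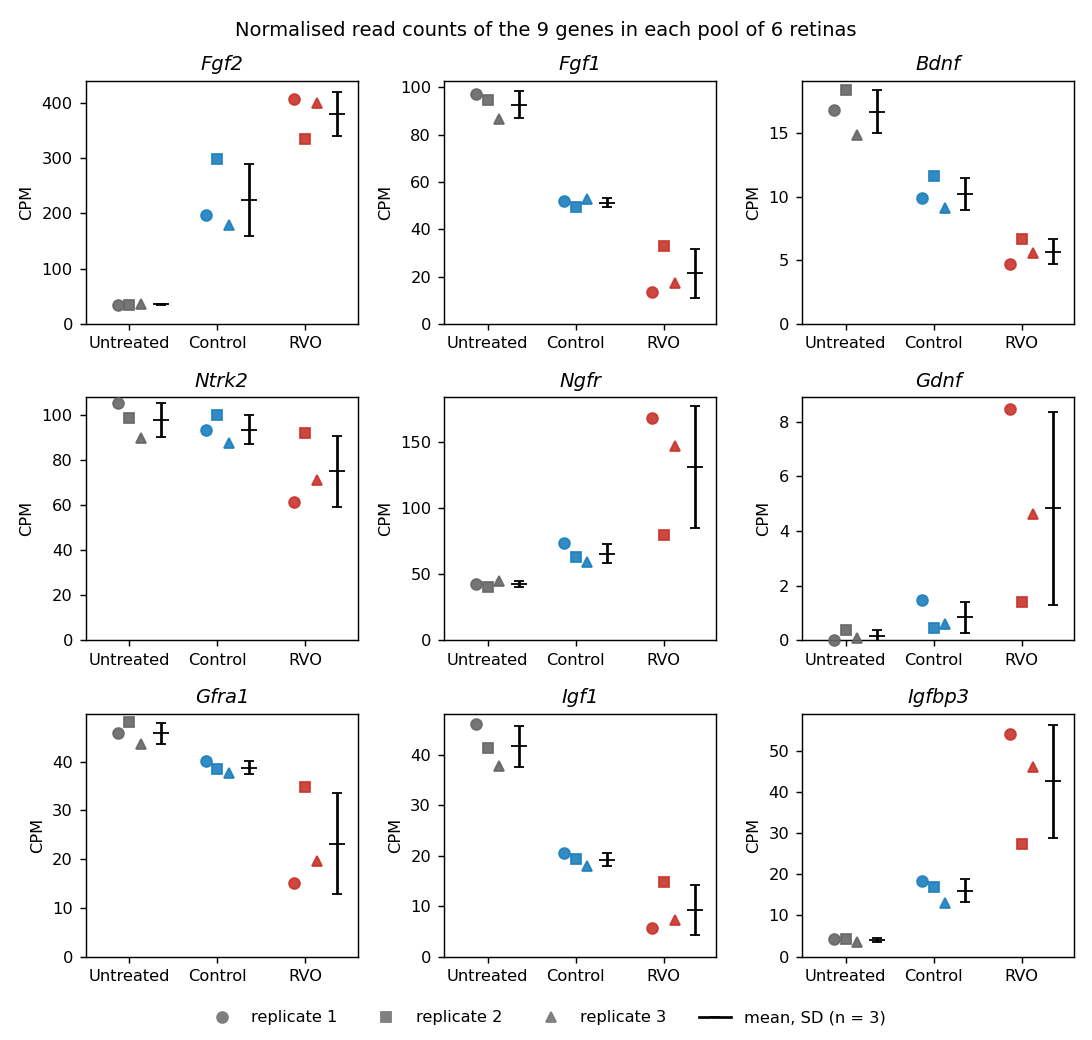
CPM (linear axis from 0) of each of the 9 genes in every pool, by group, with the mean and SD (n = 3) at the right of each group; marker shapes give the replicate number. Fgf2, Ngfr, Gdnf and Igfbp3 were lowest in untreated and highest in RVO eyes, Fgf1, Bdnf, Gfra1 and Igf1 ran the other way, and RVO replicate 2 (red square) lay nearest to the control pools in each panel.

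Of the 9 mRNAs, Fgf2 had the highest level per exonic length in laser-treated eyes. It was at 34.4, 34.9 and 36.2 CPM in the untreated pools. In control laser-treated eyes it was 196, 298 and 178 CPM, and in RVO eyes 407, 334 and 399 CPM. The groups did not overlap, and every laser-treated pool was above every untreated pool. Compared to untreated eyes, Fgf2 rose 11.0-fold in RVO eyes (log2 fold change 3.46, SE 0.0981, edgeR adjusted p = 9.61e-07) and 6.44-fold in control laser-treated eyes (2.69, SE 0.165, adjusted p = 1.07e-07). The difference between RVO and control eyes was 1.7-fold (log2 0.77, SE 0.194) and missed the threshold (adjusted p = 0.0228). It passed without RVO replicate 2 (log2 0.83, adjusted p = 0.00455), when the rise over untreated eyes was log2 3.56 (adjusted p = 2.34e-13).

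Fgf1 (chr18:38838673-38929472, −) encodes the acidic fibroblast growth factor, which binds the same receptors. It moved in the opposite direction, from 97.0, 94.7 and 86.4 CPM in untreated eyes to 52.0, 49.2 and 52.6 CPM in control laser-treated eyes. In RVO eyes, 13.6, 32.9 and 17.3 CPM were left, and the highest of these values was RVO replicate 2. The groups were fully separated. Fgf1 was 4.28-fold lower in RVO than in untreated eyes (log2 −2.10, SE 0.285, edgeR adjusted p = 0.000364) and 1.78-fold lower in control laser-treated eyes (log2 −0.84, SE 0.0599, adjusted p = 2.71e-07), the latter call being lost in a single fit of all 9 samples (0.013). Between RVO and control eyes it was 2.42-fold lower, with an adjusted p of 0.017 (log2 −1.27, SE 0.288), and without RVO replicate 2 the log2 fold change was −1.75 (adjusted p = 4.64e-06), and −2.54 against untreated eyes (adjusted p = 1.7e-10).

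Bdnf was expressed at a lower level. It was 16.8, 18.4 and 14.9 CPM in untreated, 9.90, 11.6 and 9.12 CPM in control laser-treated and 4.71, 6.71 and 5.58 CPM in RVO eyes. No pool of one group reached the range of another. Bdnf was 2.89-fold lower in RVO than in untreated eyes (log2 −1.53, SE 0.164, edgeR adjusted p = 0.000116) and 1.62-fold lower in control laser-treated eyes (log2 −0.69, SE 0.119, adjusted p = 0.000225). Compared to control eyes, RVO eyes had a log2 fold change of −0.85 (SE 0.171, adjusted p = 0.0135), and of −1.01 without RVO replicate 2 (adjusted p = 0.000556). That pool left out, the value against untreated eyes was −1.65 (adjusted p = 2.78e-07).

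Ntrk2, the TrkB gene, had the smallest fold changes. Its level was 105, 98.6 and 89.6 CPM in untreated, 93.1, 99.7 and 87.3 CPM in control laser-treated and 61.3, 91.9 and 71.0 CPM in RVO eyes. Untreated and control pools overlapped, and so did RVO replicate 2 with both. The log2 fold change was −0.04 between control laser-treated and untreated eyes (95% confidence interval −0.19 to 0.11, edgeR adjusted p = 0.587), and its sign turned with scaling by library size alone (0.13) and without control replicate 3 (0.005). For RVO against untreated eyes it was −0.355 (SE 0.143, adjusted p = 0.0547), and for RVO against control eyes −0.32 (interval −0.65 to 0.01, adjusted p = 0.115). Without RVO replicate 2, Ntrk2 was lower in RVO eyes in both comparisons, at −0.51 against untreated (adjusted p = 0.000119) and −0.51 against control eyes (adjusted p = 0.00081). Full-length and truncated TrkB transcripts are not told apart by counts per gene.

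Ngfr, the gene of p75NTR, rose in both laser-treated groups. It was 42.2, 40.1 and 44.9 CPM in untreated and 73.9, 63.2 and 59.5 CPM in control laser-treated eyes. RVO replicates 1 and 3 reached 168 and 147 CPM, while RVO replicate 2 had 79.6 CPM, just above the highest control pool. The rise was 3.17-fold in RVO eyes (log2 1.66, SE 0.246, edgeR adjusted p = 0.00055) and 1.56-fold in control laser-treated eyes (log2 0.65, SE 0.0827, adjusted p = 2.13e-05), both against untreated eyes, and the latter call was lost in a single fit of all 9 samples (0.035). The difference of 2.01-fold between RVO and control eyes missed the threshold (log2 1.01, SE 0.254, adjusted p = 0.0226), and it passed without RVO replicate 2 (log2 1.25, adjusted p = 1.12e-05), when the rise over untreated eyes was log2 1.94 (adjusted p = 1.68e-10).

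Gdnf was near the limit of detection in untreated eyes, with 0, 5 and 1 counts in the 3 pools. Control laser-treated pools had 33, 9 and 14 counts (1.49, 0.455 and 0.586 CPM), and RVO pools had 266, 33 and 105 counts (8.47, 1.40 and 4.62 CPM). Relative to their mean, the RVO pools thus differed among themselves more than for any other of the 9 genes, and RVO replicate 2 lay inside the control range. Compared to untreated eyes, the log2 fold change in RVO eyes was 4.92 (interval 2.69 to 7.16, edgeR adjusted p = 0.00236). This call rested on single pools. It was lost without untreated replicate 1 (log2 4.43, adjusted p = 0.0134) or untreated replicate 3 (log2 4.54, adjusted p = 0.0163), and the log2 value was 4.23 without RVO replicate 1, 5.38 without RVO replicate 2 (adjusted p = 4.21e-07) and 6.76 without untreated replicate 2. RVO and control eyes differed by a log2 fold change of 2.52 (interval 0.89 to 4.16), which did not pass (adjusted p = 0.0296). It passed without RVO replicate 2 (log2 2.94, adjusted p = 0.000353) and, with all pools, with no filter on low counts (0.00583) and in DESeq2 (0.000499). This value too rested on single pools, with 1.80 without RVO replicate 1 and 3.21 without control replicate 1. Control against untreated eyes was not tested in the main fit, because the counts did not pass the filter. With no filter on low counts, and without untreated replicate 2, Gdnf was called higher in control eyes.

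Gfra1, the gene of the GDNF coreceptor, was lower in every laser-treated pool than in every untreated pool. It was 45.8, 48.1 and 43.6 CPM in untreated and 40.2, 38.5 and 37.7 CPM in control laser-treated eyes. In RVO eyes, replicates 1 and 3 had 15.0 and 19.7 CPM, whereas replicate 2 had 34.9 CPM and was close to the controls. The groups did not overlap, but no comparison passed the threshold. The log2 fold change was −0.96 (SE 0.267, edgeR adjusted p = 0.0127) for RVO against untreated eyes, −0.22 (SE 0.0663, adjusted p = 0.011) for control against untreated eyes and −0.75 (SE 0.271, adjusted p = 0.0675) for RVO against control eyes. The first of these passed in DESeq2 (adjusted p = 0.000662). Without RVO replicate 2, Gfra1 was lower in RVO eyes, with −1.36 against untreated (adjusted p = 9.58e-08) and −1.18 against control eyes (adjusted p = 3.65e-05).

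Igf1 encodes a growth factor that supports neurons and vessels and, in the retina, is also made by microglia. It was 46.0, 41.3 and 37.7 CPM in untreated, 20.4, 19.3 and 18.0 CPM in control laser-treated and 5.61, 14.8 and 7.21 CPM in RVO eyes. The groups did not overlap, and RVO replicate 2 was the RVO pool with the highest value. Igf1 was 4.46-fold lower in RVO than in untreated eyes (log2 −2.16, SE 0.316, edgeR adjusted p = 0.000525) and 2.14-fold lower in control laser-treated eyes (log2 −1.10, SE 0.0894, adjusted p = 5.93e-07). RVO and control eyes differed by a log2 fold change of −1.07 (SE 0.322), which missed the threshold with all pools (adjusted p = 0.0387), and by −1.61 without RVO replicate 2 (adjusted p = 1.52e-05), when the value against untreated eyes was −2.66 (adjusted p = 6.29e-10).

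Igfbp3, by contrast, rose. This secreted protein binds IGF1 and prolongs its stay in the circulation. It was 4.36, 4.38 and 3.43 CPM in untreated, 18.3, 16.8 and 12.9 CPM in control laser-treated and 54.2, 27.4 and 46.1 CPM in RVO eyes, again without overlap. The rise against untreated eyes was 10.8-fold in RVO (log2 3.43, SE 0.277, edgeR adjusted p = 3.38e-05) and 4.01-fold in control laser-treated eyes (log2 2.0, SE 0.162, adjusted p = 5.68e-07). Between RVO and control eyes the difference was 2.67-fold (log2 1.42, SE 0.256), with an adjusted p of 0.0119. Without RVO replicate 2 the log2 fold change was 1.64 (adjusted p = 1.74e-05), and 3.69 against untreated eyes (adjusted p = 2.82e-11).

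**Figure D2:**
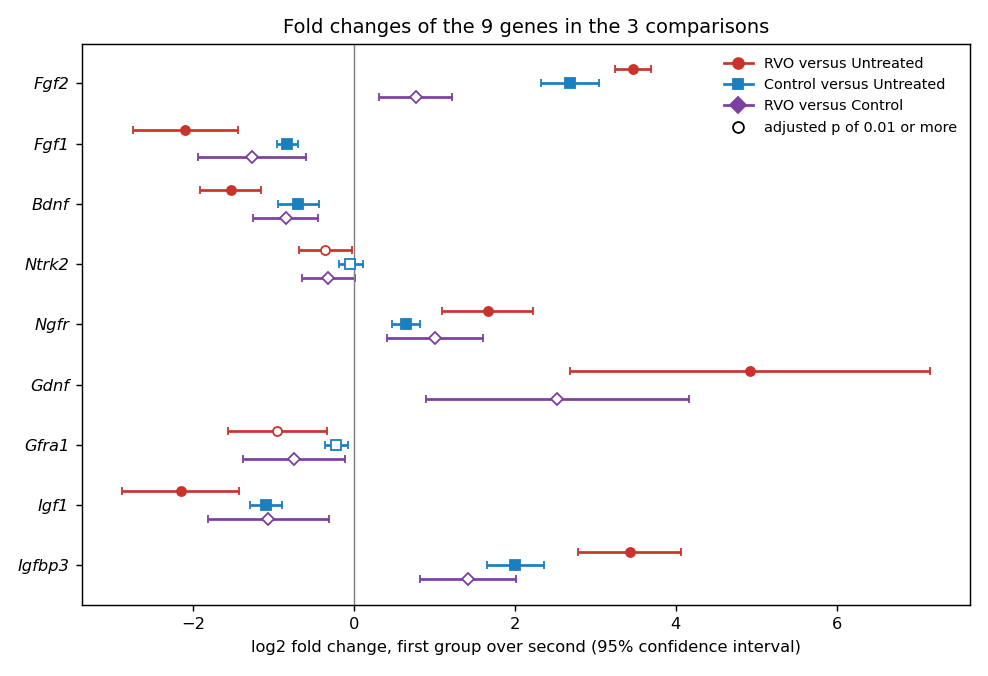
Log2 fold changes (x axis) of the 9 genes with 95% confidence intervals derived from edgeR's F statistic. They are shown for RVO against untreated, control against untreated and RVO against control eyes. Open symbols have an adjusted p of 0.01 or more, and Gdnf has no value for control against untreated eyes. The red and blue symbols lie on the same side of 0 for each gene with both, from 3.46 and 2.69 for Fgf2 to −2.16 and −1.10 for Igf1, and every RVO against control symbol is open.

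Compared to untreated eyes, 4 of the 9 genes were higher in RVO eyes (Fgf2, Ngfr, Gdnf and Igfbp3) and 3 were lower (Fgf1, Bdnf and Igf1). Changes were frequent among all 16380 genes tested, of which 27.4% were higher and 24.6% lower, so that the counts of these 9 genes have to be read against shares of that size. With an adjusted p under 0.05, 4 were higher and 4 lower, against 34.4% and 32.5% of all genes. Without RVO replicate 2, 4 were higher and 5 lower at 0.01, against 33.3% and 31.0%. The RVO and untreated pools did not overlap for 8 of the 9 genes, and for 73.4% of all genes tested. The median log2 fold change was −0.36 over the 9 genes and 0.01 over all genes.

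In control laser-treated eyes, 3 of 8 tested genes were higher than in untreated eyes (Fgf2, Ngfr and Igfbp3) and 3 were lower (Fgf1, Bdnf and Igf1). Of all 16066 genes tested, 27.2% were higher and 25.2% lower. At an adjusted p under 0.05, the genes were 3 higher and 4 lower, against 33.0% and 31.4% of all genes. The pools did not overlap for 7 of the 8 tested genes and for 70.0% of all genes. The comparisons of RVO and of control eyes with untreated eyes share the untreated pools, so their values are given side by side and were not correlated.

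Between RVO and control laser-treated eyes, which asks what vein occlusion adds to the laser burns, 0 of the 9 genes passed at 0.01 in edgeR's quasi-likelihood test, against 2.7% of 16874 genes that were higher and 0.634% that were lower. An unadjusted p under 0.05 was found for 8 of the 9, and for 47.1% of all genes. At an adjusted p under 0.05, 4 were higher and 3 lower, against 17.5% and 17.1% of all genes. DESeq2 also counted 4 higher and 3 lower at 0.01, against 9.91% and 11.4% of the 18588 genes to which it gave an adjusted p. Without RVO replicate 2, 4 were higher (Fgf2, Ngfr, Gdnf and Igfbp3) and the other 5 lower at 0.01, against 17.1% and 19.3%. RVO and control pools did not overlap for 7 of the 9 genes, and for 52.5% of all genes.

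**Figure D3:**
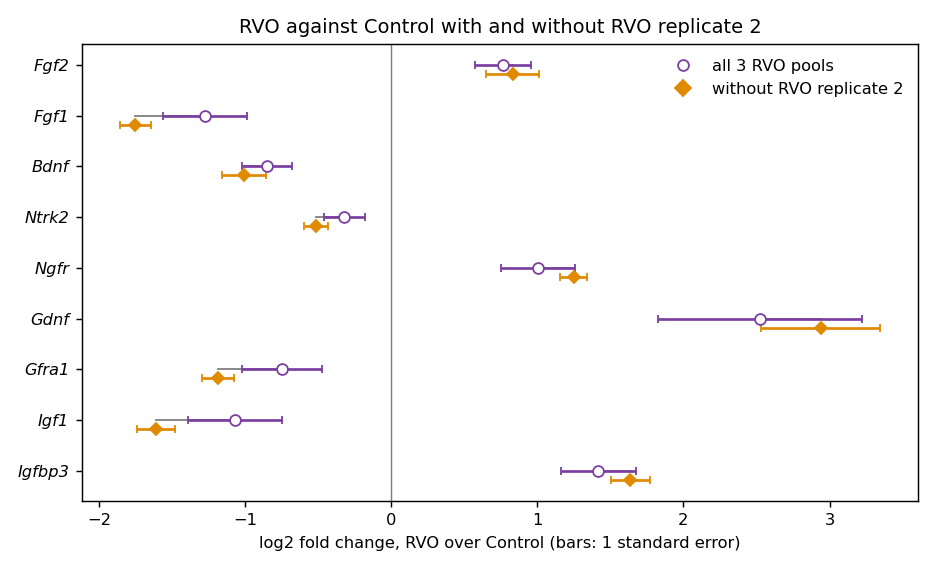
Log2 fold change of RVO over control laser-treated eyes (x axis, bars of 1 SE) for each of the 9 genes, with all 3 RVO pools (open circles) and without RVO replicate 2 (diamonds). The value moves away from 0 for every gene, for example from −1.07 to −1.61 for Igf1, which follows from the position of this pool between the other RVO pools and the controls. The SE is smaller, except for Fgf2 and Bdnf, where it is similar.

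To compare genes with each other, CPM were divided by the exonic length in kb. In untreated eyes, Fgf1 was the most abundant of the 9 mRNAs on this scale (17.0 ± 1.02 CPM per kb, SD, n = 3), followed by Ngfr (12.3 ± 0.704), Gfra1 (8.36 ± 0.409), Fgf2 (5.19 ± 0.136) and Ntrk2 (5.06 ± 0.397). Fgf2 and Ntrk2 overlapped in range. Igf1 (4.20 ± 0.417), Bdnf (2.69 ± 0.277) and Igfbp3 (1.30 ± 0.173) were lower, and Gdnf was lowest (0.0419 CPM per kb). In control laser-treated eyes, Fgf2 was first (33.0 ± 9.60), followed by Ngfr (19.0 ± 2.17) and Fgf1 (9.38 ± 0.334), then Gfra1 (7.09 ± 0.23). The ranges of Igfbp3 and Ntrk2 overlapped there, as did those of Igf1 and Bdnf. In RVO eyes, the order began with Fgf2 (56.0 ± 5.88), Ngfr (38.1 ± 13.3) and Igfbp3 (13.6 ± 4.39), whose ranges were separate. Gfra1, Fgf1 and Ntrk2 followed with 4.23, 3.89 and 3.88 CPM per kb and overlapping ranges, and Gdnf, Igf1 and Bdnf came last with 1.31, 0.929 and 0.912 CPM per kb, also overlapping. From untreated to RVO eyes, Fgf2 thus moved from rank 4 to rank 1 and Fgf1 from rank 1 to rank 5.

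**Figure D4:**
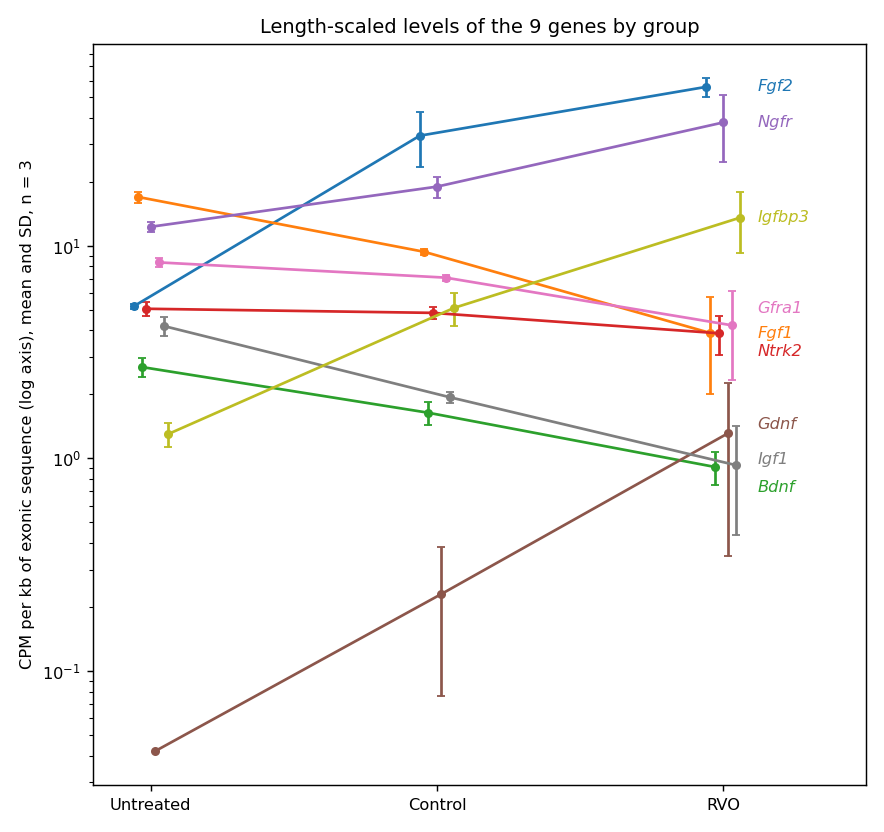
Mean level per kb of exonic sequence (log axis) of the 9 genes in untreated, control laser-treated and RVO eyes, with SD (n = 3); the lines join the groups of one gene, and the SD of Gdnf in untreated eyes is left out because it exceeds the mean. Fgf2 crosses from the middle of the order in untreated eyes (5.19) to the top in RVO eyes (56.0), while Fgf1 falls from 17.0 to 3.89 CPM per kb.

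Markers of 18 cell types were summed in the same pools, and many differed between the groups. In bulk RNA, fewer cells of a type and less RNA per cell cannot be told apart. The counts below are for RVO against untreated eyes, where 27.4% of all genes were higher and 24.6% lower, and the sums are ranges over untreated, control and RVO pools in this order. Rod markers, which define the retina, were high in all pools and summed to 89800 to 91800, 57800 to 70600 and 47400 to 51300 CPM, and 10 of 10 were lower. Cone markers summed to 1620 to 1700, 1010 to 1290 and 530 to 809 CPM (7 of 8 lower), and bipolar cell markers to 1290 to 1350, 1030 to 1120 and 350 to 722 CPM (6 of 8 lower). Amacrine cell markers summed to 797 to 858, 652 to 699 and 256 to 470 CPM (7 of 8 lower), and horizontal cell markers to 130 to 144, 74.0 to 81.7 and 6.72 to 39.1 CPM (3 of 4 lower). The 8 retinal ganglion cell markers summed to 1150 to 1210, 936 to 990 and 248 to 609 CPM, and 8 of 8 were lower. For these 6 types of neurons, RVO replicate 2 was the RVO pool with the highest sum. The 9 Müller cell markers summed to 5210 to 5450, 3380 to 4030 and 1960 to 2970 CPM, with 5 of 9 lower. Astrocyte markers summed to 43.4 to 47.0, 284 to 462 and 252 to 369 CPM, with 2 of 4 higher. The 4 astrocyte markers did not move together, as their log2 fold changes ran from −0.95 to 3.38. Microglia markers summed to 158 to 241, 104 to 118 and 62.2 to 110 CPM (6 of 10 lower). Monocyte and macrophage markers summed to 43.2 to 47.3, 125 to 160 and 245 to 305 CPM (10 of 12 higher), and neutrophil markers to 0.547 to 1.21, 8.24 to 24.3 and 45.6 to 102 CPM (4 of 4 tested higher). Platelet and erythroid markers summed to 12.2 to 14.3, 30.6 to 33.1 and 55.8 to 187 CPM (4 of 6 tested higher), and fibroblast markers to 25.1 to 30.9, 29.8 to 39.5 and 58.0 to 72.2 CPM (4 of 6 higher). Of the lens markers, 6 of 8 tested were higher. Endothelial markers (3 of 10 higher), pericyte and smooth muscle markers (2 of 9 higher and 2 lower), pigment epithelium and melanocyte markers (1 of 9 lower) and Schwann cell and oligodendrocyte markers (1 of 4 tested lower) had sums that overlapped between untreated and RVO eyes. Endothelial sums were 261 to 270, 424 to 472 and 232 to 373 CPM, highest in control pools. Against untreated eyes, 7 of 10 endothelial markers were higher in control eyes, beside 27.2% of all genes. Pericyte and smooth muscle sums were 103 to 119, 117 to 142 and 86.0 to 168 CPM. Pigment epithelium and melanocyte sums were 598 to 642, 515 to 569 and 458 to 922 CPM. Schwann cell and oligodendrocyte sums were 40.5 to 55.6, 41.3 to 47.1 and 31.0 to 42.2 CPM. When RVO replicate 2 was left out, 9 of 9 Müller cell and 10 of 10 microglia markers were lower. No listed marker was at 0 in all pools. The part of these shifts in the values of the 9 genes was not tested.

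Other genes of the same pathways were listed by their roles, 110 genes in 6 lists. They were chosen with earlier results of these data known, so their counts are a description, to be read beside the shares of all genes. For RVO against untreated eyes these were 27.4% higher and 24.6% lower, for control against untreated eyes 27.2% and 25.2%, and for RVO against control eyes 2.7% and 0.634%. Leaving out RVO replicate 2, they were 33.3% and 31.0% against untreated and 17.1% and 19.3% against control eyes. Among 16 tested FGF ligands, receptors and cofactors, 4 were higher and 4 lower at d2 of RVO against untreated eyes (median log2 fold change −0.42), and 4 and 7 of 17 without RVO replicate 2. The receptor gene Fgfr1 rose from 27.8 to 81.4 CPM (log2 1.58, SE 0.0801, edgeR adjusted p = 4.85e-06), and Fgfbp1, whose product releases FGFs from the matrix, rose from 0.234 to 0.92 CPM (log2 1.95, adjusted p = 0.00398). The ligands Fgf18 (1.26 to 0.278 CPM, log2 −2.09) and Fgf9 (31.7 to 17.9 CPM, log2 −0.80) fell. In control laser-treated eyes, 4 of 15 were higher and 4 lower (median −0.29). Of those that passed, the receptor Fgfr3 (log2 1.42) and the decoy receptor Fgfrl1 (log2 1.00) rose most, and the adaptor Frs2 (log2 −0.56) and the receptor Fgfr2 (log2 −0.54) fell most. Among 19 genes tested between RVO and control eyes, Fgfr1 alone passed (50.3 to 81.4 CPM, log2 0.70, adjusted p = 0.00564). The call of Fgfbp1 was lost without RVO replicate 3 (adjusted p = 0.0113) or any untreated pool (0.0155 to 0.0205), and in DESeq2 (0.0136). That of Fgfr3 was lost without control replicate 1 (0.0325) or any untreated pool (0.0124 to 0.0526) and in one fit of all 9 samples (0.101). Fgfr3 was at 3.26 CPM in control replicate 1 and 5.18 CPM in RVO replicate 2, the pools with the highest lens marker sums. It was at 1.05 to 2.15 CPM in the other laser-treated pools, and a part of lens tissue in its rise was not tested. The Fgfr2 call was lost without control replicate 2 (0.0247), control replicate 3 (0.0298) or any untreated pool (0.0169 to 0.0239), and with scaling by library size alone (0.052), one fit (0.073) and DESeq2 (0.0148).

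Immediate targets and feedback regulators of FGF and ERK signalling were listed next. In RVO against untreated eyes, 9 of 15 were higher and 1 lower (median log2 fold change 0.62, beside 0.01 over all genes), and 9 and 3 without RVO replicate 2. Fosl1, an AP-1 subunit, rose 52.3-fold from 1.60 to 82.5 CPM (SE of log2 0.656, edgeR adjusted p = 0.000161), and the immediate early gene Egr1 rose 7.64-fold from 29.9 to 223 CPM (adjusted p = 5.02e-06). Etv1, an ETS transcription factor, fell (log2 −1.11, adjusted p = 0.00405), a call that was lost without RVO replicate 3 (0.0131) or any untreated pool (0.0159 to 0.0183). Control laser-treated eyes had 6 of 15 higher and 2 lower (median 0.24), led by Fosl1 (log2 2.83) and Egr1 (log2 1.66), with Etv1 (log2 −0.82) and the inhibitor Spred2 (log2 −0.41, a call lost with library size alone, adjusted p = 0.0381) lower. Against control eyes, 3 of 15 passed in RVO eyes, namely Spry2 (70.0 to 181 CPM, log2 1.37, adjusted p = 0.0098), Egr1 (log2 1.26, adjusted p = 0.00746) and Dusp6 (log2 0.89, adjusted p = 0.00928), the last of which is named after its value was seen. Sprouty 2 and the phosphatase DUSP6 dampen ERK signalling.

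Among 18 tested neurotrophin ligands, receptors and processing genes, RVO eyes had 6 higher and 8 lower when set against untreated eyes (median −0.09), and 6 and 9 without RVO replicate 2. Nradd, a death-domain homologue of p75NTR, rose 7.36-fold (1.16 to 8.27 CPM, edgeR adjusted p = 0.000161), and Plat, the tissue plasminogen activator that helps to process proBDNF, rose 5.88-fold (10.8 to 62.0 CPM, adjusted p = 5.03e-05). The sortilin-related receptors Sorcs3 (log2 −1.48) and Sorcs1 (log2 −1.09) fell, the former losing its call without RVO replicate 3, untreated replicate 1 or untreated replicate 3 (adjusted p = 0.0115 to 0.0122). Control against untreated eyes had 7 of 17 higher and 5 lower (median −0.05), among them Nradd (log2 1.71), Plat (log2 1.16), the scaffold Magi2 (log2 −0.62) and Frs2, which is on this list too. When RVO was set against control eyes, Plat (log2 1.39, adjusted p = 0.00989) and the adaptor Shc1 (log2 0.69, adjusted p = 0.0086) were higher, and 16 of 18 did not pass.

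Of 8 tested GDNF family ligands and receptors, RVO eyes had 2 higher and 3 lower when set against untreated eyes (median −0.01), and 3 and 4 without RVO replicate 2. Gdf15, a stress-induced ligand, rose from 0.375 to 14.3 CPM (38.9-fold, edgeR adjusted p = 0.000221). Gfral, a receptor gene on this list, had 0 counts in every pool. The ligand neurturin, Nrtn, rose from 2.41 to 5.76 CPM (log2 1.28, adjusted p = 0.000752). Its coreceptor Gfra2 fell from 32.7 to 9.71 CPM (log2 −1.73, adjusted p = 0.00107) and Ret from 59.9 to 24.2 CPM (log2 −1.28, adjusted p = 0.00496). The Ret call was lost without RVO replicate 3 (0.0239) or any untreated pool (0.0171 to 0.0213). Control against untreated eyes had 4 of 8 higher and 1 lower (median 0.33), with Gdf15 at log2 3.53, Nrtn at 1.09 and Gfra2 at −0.35. The Gfra2 call was lost with library size alone (adjusted p = 0.0499) and in one fit of all 9 samples (0.226). The value of Gdf15 rested on control replicate 1, without which it was 1.95, and its call was lost without any 1 of the untreated pools (0.0187 to 0.0272) and in the one fit (0.0227). For RVO against untreated eyes it was 4.68 without RVO replicate 1. None of 9 passed between RVO and control eyes, and the largest differences were 1.74 for Gdf15 (adjusted p = 0.128) and −1.38 for Gfra2 (adjusted p = 0.0153). The former moved to 1.11 when RVO replicate 1 was left out (0.346) and to 3.33 when control replicate 1 was (0.0498). The latter passed without RVO replicate 2 (4.07e-06), with no filter (0.0019), in one fit (0.00277) and in DESeq2 (3.61e-05).

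Of 18 tested IGF ligands, receptors and binding proteins, RVO eyes had 6 higher and 3 lower when set against untreated eyes (median 0.45), and 7 and 3 without RVO replicate 2. Stc2, whose product inhibits the protease that frees IGFs from their binding proteins, rose from 7.18 to 23.4 CPM (log2 1.75, edgeR adjusted p = 0.00145), and Igfbp2 rose from 15.1 to 27.4 CPM (log2 0.89, adjusted p = 0.00266). The Igfbp2 call was lost without RVO replicate 3 (0.0119) or untreated replicate 1 (0.0107). Pappa2, a protease of binding proteins, fell from 18.8 to 4.66 CPM (log2 −2.0, adjusted p = 0.00136), and Igf2 fell from 47.8 to 25.3 CPM (log2 −0.89, adjusted p = 9.01e-05). For control against untreated eyes, 5 of 18 were higher, led by Igfbpl1 (log2 1.21) and Igfbp7 (log2 0.88), and 3 were lower, led by Pappa2 (log2 −0.73) and Stc1 (log2 −0.53). The Igfbpl1 call was lost without control replicate 2, control replicate 3 or any untreated pool (0.0155 to 0.0282) and in DESeq2 (0.0655), and the Stc1 call without control replicate 2, control replicate 3, untreated replicate 1 or untreated replicate 2 (0.0134 to 0.0284) and with library size alone (0.0398). In one fit of all 9 samples, the calls of Stc1 (0.108), Pappa2 (0.0522) and Igfbp7 (0.0244) were lost. Stc2 alone passed between RVO and control eyes (5.61 to 23.4 CPM, log2 2.07, adjusted p = 0.00977). The receptor gene Igf1r, named after its values were seen, was at 212 ± 18.2, 194 ± 7.4 and 211 ± 11.3 CPM (SD, n = 3) in RVO, control and untreated eyes, with no comparison passing (adjusted p = 0.127 to 0.671).

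Other photoreceptor survival factors included the largest changes of all lists in RVO against untreated eyes, where 8 of 16 were higher and 3 lower (median 0.49), and again 8 and 3 without RVO replicate 2. Edn2, the endothelin 2 gene that is switched on in stressed photoreceptors, rose 71.9-fold (2.27 to 160 CPM, edgeR adjusted p = 9.61e-07). The gene of leukaemia inhibitory factor, Lif, a Müller glial signal, rose 66.0-fold (0.99 to 65.1 CPM, adjusted p = 2.73e-06). Ptn (94.3 to 27.6 CPM, log2 −1.75, adjusted p = 0.00184) and Hgf (4.55 to 1.47 CPM, log2 −1.61, adjusted p = 0.000447) fell, the former losing its call without untreated replicate 1 (0.0105). For control against untreated eyes, 3 of 15 were higher and 3 lower (median 0.21), with Edn2 at log2 5.42, Lif at 3.92, Ptn at −0.76 (lost in one fit, adjusted p = 0.0381) and Cdnf at −0.74. RVO eyes had 3 of 16 higher than control eyes. These were Lif (15.1 to 65.1 CPM, log2 2.11, adjusted p = 0.00564), Pdgfa (7.57 to 14.9 CPM, log2 0.98, adjusted p = 0.0086) and Mdk (log2 0.81, adjusted p = 0.00943), the last of which is named after its value was seen.

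Except for Lif, the differences between RVO and control eyes that passed in these lists depended on every pool but RVO replicate 2. With RLE factors, 6 genes of the lists passed, and Spry2, Plat and Stc2 were among those lost (edgeR adjusted p = 0.0105 to 0.0106). The values of Dusp6 and Mdk with RLE factors are not given here. In all 6 lists together, 10 genes passed with all pools and 46 without RVO replicate 2. Only Lif passed without RVO replicate 1, and no gene passed without RVO replicate 3 or any 1 of the control pools.

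**Figure D5:**
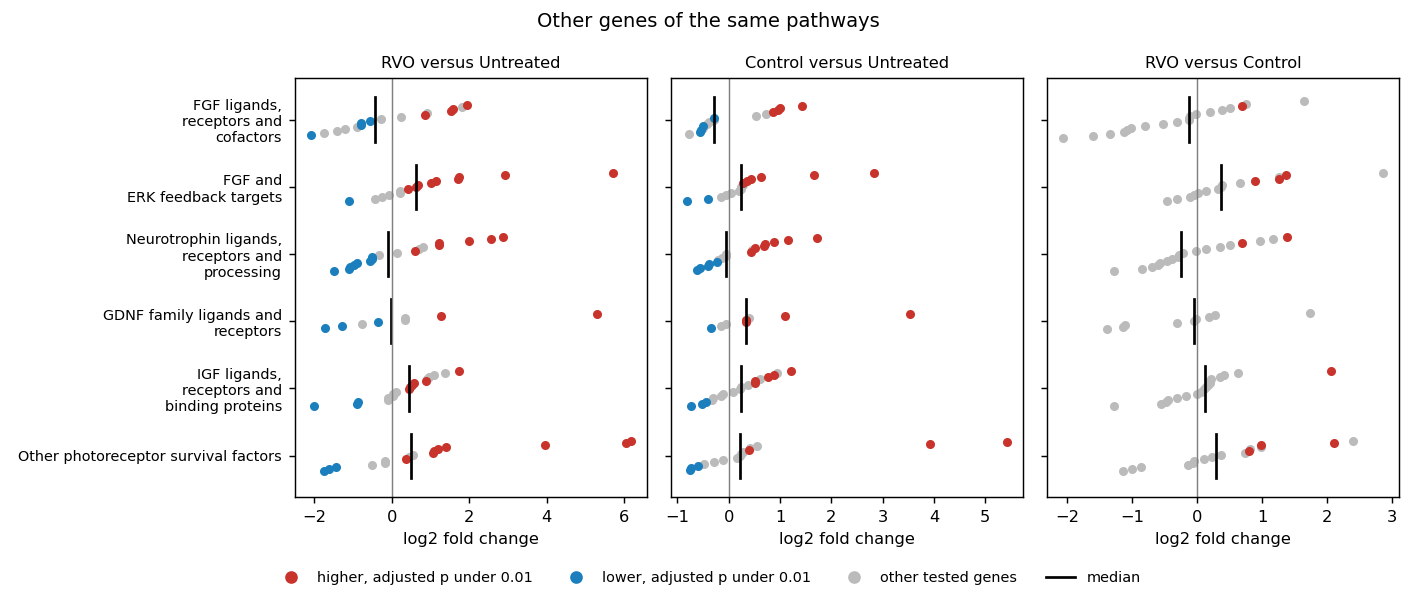
Log2 fold changes (x axes) of the tested genes of 6 pathway lists in the 3 comparisons; each dot is a gene, stacked by its value within a list, coloured where the adjusted p was under 0.01, and the black bar is the median of the list. FGF and ERK feedback targets lie mostly right of 0 in RVO against untreated eyes (median 0.62), Edn2 and Lif are the pair of dots near 6 in the lowest row, and few dots are coloured in RVO against control eyes.

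The genes most like each of the 9 in their pattern were found by Pearson's r of log2 CPM over the 9 pools, among 14973 genes with a mean of at least 1 CPM. The pools fall into 3 groups, so a gene that differs between the groups in the same order has a high r, and r was at least 0.95 for between 40 genes (Ntrk2) and 1436 genes (Fgf2). Fgf2 was most like Sh2d3c (0.998) and Stat3 (0.998), the latter with 60.9, 260 and 432 CPM in untreated, control and RVO eyes. The closest pattern to Fgf1 was that of Lnp1 (0.9995) and Hlf (0.9994), and to Bdnf that of Dock10 (0.996) and 3830408C21Rik (0.995). Ntrk2 was most like Rbms3 (0.983) and Pam (0.98), and Gfra1 most like Cntn1 (0.996) and Onecut3 (0.994), while Usb1 (0.995) was among the genes closest to Ngfr. Pcdh9 (0.998) and Luzp2 (0.997) were closest to Igf1, and Plaur (0.998) and Pus1 (0.996) to Igfbp3. Gdnf was not compared, since it did not pass the filter in every comparison.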

How the data were processed

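Per the labels and the methods of the study, poly-A RNA of 9 retinal pools was sequenced as single reads with a stranded TruSeq kit. The authors mapped the reads with STAR 2.5.2b to the mouse genome (Gencode vM11, build GRCm38), and counted them with featureCounts (Subread 1.5.1). The deposited table holds raw counts per gene symbol, without normalization, and 0 sample columns were left unused. The strand and multiple-mapping settings were not given in the sources used here.

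The tests were run with edgeR 4.0.16 under R 4.3.3 (filterByExpr, TMM, quasi-likelihood test, Benjamini-Hochberg adjustment), fitting 2 groups at a time, with the threshold of 0.01 that the study uses in its legends. The SE was derived as the absolute log2 fold change divided by the square root of the test's F statistic. Confidence intervals were built from this SE and the t distribution with the total degrees of freedom of the test. RVO pools had TMM factors of 1.049 to 1.083, control pools of 1.02 to 1.047 and untreated pools of 0.8896 to 0.9183. Biological variation, as edgeR's common coefficient, came to 13.83% in the fit of RVO and untreated pools, 7.491% in that of control and untreated pools and 14.36% in that of RVO and control pools. The study used DESeq2, which was an alternative here (1.42.0). Replicates differed by more than counting noise (chi-square over degrees of freedom 3.34 to 59.5). By the study's methods, each pool combined retinas of 6 mice, but it is not stated outright that the pools of a group shared no mouse, and p-values measure the spread between pools.

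CPM were computed on TMM-scaled libraries of all 9 samples. Exonic lengths and coordinates came from GENCODE vM21 (GRCm38). The script was tested on simulated counts. Other settings were RLE factors, library size alone, no filter, 1 fit over all groups, a block for the replicate number, an adjusted p under 0.05 and each pool left out in turn.

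The 9 genes, the lists and the marker genes were chosen with earlier results of these data known. From each of 6 pathway lists and each comparison, the genes named were up to 2 with the largest rise and up to 2 with the largest fall among those that passed without overlap of the groups. Where none passed between RVO and control eyes, the 2 with the largest difference were named. Of the listed genes, 266 of 268 were in the table. The 18 marker lists are each reported by the count of their genes that passed. No proteins were printed. Some of the genes most like a member in pattern are not reported here.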

Additional observations from a re-analysis of the deposited data

How the results depend on the processing

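Of 338 values of the 9 genes under other settings, 288 kept their direction and their side of the threshold, 4 lost and 44 gained the threshold, and 2 changed sign. Both of the latter were Ntrk2 in control against untreated eyes, with log2 0.13 when scaled by library size alone and 0.005 without control replicate 3 (−0.118 to 0.005 with 1 pool left out). The threshold was gained by Gfra1 in control against untreated eyes with RLE factors (adjusted p = 0.00961) and without untreated replicate 3 (0.00684), and in RVO against untreated eyes with no filter (0.000394), one fit of all 9 samples (0.00357) and DESeq2 (0.000662). Without RVO replicate 2, RVO eyes had 5 rather than 3 of the 9 genes below untreated eyes. For RVO against control eyes, the genes higher and lower were 4 and 2 with no filter, 3 and 2 in one fit of all 9 samples, 4 and 3 with DESeq2 and 4 and 3 at an adjusted p under 0.05. Leaving out 1 pool gave 0 to 4 higher and 0 to 5 lower. All genes that passed numbered 563 in this comparison, against 892 with library size alone, 3309 with no filter, 3853 in one fit of all 9 samples, 3967 with DESeq2 and 5836 at an adjusted p under 0.05. With 1 pool left out, they numbered 29 (RVO replicate 1 left out), 6257 (RVO replicate 2), 1 (control replicate 1) and 0 (RVO replicate 3, control replicate 2 or control replicate 3), and in the last 3 cases 6100, 6916 and 6311 genes had an unadjusted p under 0.05 in edgeR. The pathway genes that passed were 10, against 6 with RLE factors, 32 with no filter, 38 in one fit, 37 with DESeq2, 48 at 0.05 and 0 to 46 with 1 pool left out. For control against untreated eyes, the pathway genes that passed were 46, and 26 in one fit of all 9 samples. The cause of these changes was not tested.

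The share of higher genes among those that passed rose with library size alone from 52.7% to 68.5% for RVO and from 51.9% to 70.4% for control against untreated eyes, where this scaling moved the median of all tested genes to 0.221 and 0.186 on the log2 scale. Between RVO and control eyes it was 81.0%, and 47.4% with no filter, 47.5% in one fit of all 9 samples, 46.4% with DESeq2 and 47.0% without RVO replicate 2.

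RVO and control pools of the same number did not deviate together (r = −0.131, −0.148 and 0.071). Such values, from few pools per group, cannot show whether pools of the same number came from the same mice. With the replicate block, 0 genes, and 0 pathway genes, passed between RVO and control eyes (7227 genes, 9 of the 9 among them, at an unadjusted p under 0.05), and Gfra1 was lower in RVO than in untreated eyes (log2 −1.03, adjusted p = 0.00191). Untreated pools had the fewest counts, which limits the precision for Gdnf.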
